A study of Mus musculus with 2 samples.

Results

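The genes described here encode the soluble glutathione S-transferases (Gst), the UDP-glucuronosyltransferases (Ugt) and the sulfotransferases (Sult) of the mouse. Members were all genes of GENCODE biotype protein_coding whose symbol begins with Gst and a class letter a, m, p, t, o, z or k and a digit, with Ugt1, Ugt2 or Ugt3 and a letter, or with Sult and a digit. The rule used names only and no measured value. It found 63 of the 21474 protein-coding genes in the tables, 22 Gst, 20 Ugt and 21 Sult, and left out 4 Sult2a pseudogenes. The libraries, 2 in number, were polyA-selected RNA longer than 200 nt, sequenced as stranded paired reads of 76 nt, from tissue labelled large intestine of adult C57BL/6J mice at 8 weeks. Each library is labelled as a biological replicate of pooled male and female littermates, and both stand under 1 donor record. No mutant allele or treatment is named in the labels, and there is 1 group, so no contrast between conditions exists and no p-value was computed. Replicate 1 held 50189619 expected counts and replicate 2 held 58233142, of which 93423 and 85896 fell on the members.

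Conjugation is the step of detoxification in which an enzyme joins a polar group to a drug, hormone, bile pigment or dietary compound so that it can be exported from the cell. Glutathione S-transferases add the tripeptide glutathione to electrophiles. UDP-glucuronosyltransferases sit in the endoplasmic reticulum and add glucuronic acid from UDP-glucuronate, and sulfotransferases in the cytosol add sulfate from the donor PAPS. The gut epithelium is a known site of all these reactions, and conjugates leave it through ABC transporters of the cell membrane.

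The libraries did not match their labels in all respects, and this bears on every value below. Of 9 colonocyte markers 4 were detected, here and below meaning at least 1 TPM (a deposited level per transcript length, scaled to the same total in each library) in both libraries. The 9 summed to 687 TPM in replicate 1 and 915 in replicate 2, led by the mucin gene Muc3 at 396 and 683, Car4 at 117 and 141 and Ceacam20 at 131 and 69.2, with Slc26a3, at least 2-fold higher in replicate 1, at 43.5 and 20.96. The other 5 were at or near 0: the carbonic anhydrase gene Car1 was at 0.23 TPM in replicate 1 and 0.27 in replicate 2, the water channel gene Aqp8 was at 0.04 in each, Atp12a and Scnn1b were at no more than 0.02, and Scnn1g had 0 counts. All 10 markers of small intestine enterocytes were detected, with sums of 12412 TPM in replicate 1 and 5394 in replicate 2, and 9 of them were at least 2-fold higher in replicate 1. The 5 markers of ileal enterocytes were all higher in replicate 2, 3 of them at least 2-fold, with sums of 1094 and 6353 TPM. All 7 Paneth cell markers were detected too, with sums of 20077 TPM in replicate 1 and 26021 in replicate 2. The 9 general epithelial markers had sums of 11548 and 10583 TPM. Xist had 17 expected counts in replicate 1 and 12563 in replicate 2, while 4 Y-linked genes together had 2741 and 3, against the label of pooled sexes. A difference between these libraries is therefore 1 against 1, and what part these features have in it was not tested. In bulk tissue, fewer cells of a type and less RNA per cell cannot be told apart.

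Promoter windows are printed for the 3 neighbouring Gstp genes, which hold most of the Gst level and differ widely among themselves. Each runs from 250 bases before to 50 after the start given by RefSeq on GRCm38.p6, 300 bases in all, 5′ to 3′ on the strand of the gene. Capitals mark TGAGTCA, a binding sequence of AP-1 factors, where it occurs.
Gstp1, chr19:4037863-4038162, minus strand: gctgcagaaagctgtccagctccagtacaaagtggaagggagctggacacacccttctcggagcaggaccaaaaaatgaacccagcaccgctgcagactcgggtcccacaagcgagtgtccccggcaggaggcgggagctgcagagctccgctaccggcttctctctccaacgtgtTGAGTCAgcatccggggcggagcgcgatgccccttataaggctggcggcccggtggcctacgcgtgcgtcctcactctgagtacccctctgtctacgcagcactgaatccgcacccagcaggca
Gstp2, chr19:4042172-4042471, minus strand: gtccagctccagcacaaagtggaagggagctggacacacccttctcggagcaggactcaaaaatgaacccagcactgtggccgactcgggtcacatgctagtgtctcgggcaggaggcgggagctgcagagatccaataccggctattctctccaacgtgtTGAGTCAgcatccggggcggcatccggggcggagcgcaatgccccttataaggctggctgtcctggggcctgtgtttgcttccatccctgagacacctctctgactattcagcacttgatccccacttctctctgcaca
Gstp3, chr19:4059398-4059697, minus strand: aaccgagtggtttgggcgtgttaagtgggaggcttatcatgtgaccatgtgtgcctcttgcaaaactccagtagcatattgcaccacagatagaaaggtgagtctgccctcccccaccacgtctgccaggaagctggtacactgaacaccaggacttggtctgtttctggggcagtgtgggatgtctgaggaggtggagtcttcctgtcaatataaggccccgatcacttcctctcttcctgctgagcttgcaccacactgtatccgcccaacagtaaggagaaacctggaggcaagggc
TGAGTCA began 74 bases before the start in Gstp1 and 89 bases before it in Gstp2, inside a run of 34 bases that both windows share, and the letters did not occur in the Gstp3 window. The longest run shared by the Gstp1 and Gstp2 windows was 43 bases, and that of either with Gstp3 was 8.

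Of the 63 members 55 had a RefSeq window, 66 windows in all, and matches of 2 motifs are given, on both strands, in these and in all 32851 windows. TGAGTCA occurred in 5.2% of all windows and in windows of 8 of the 55 members (14.5%), namely Gstp1, Gstp2, Gstm5, Sult1b1, Sult1c1, Sult2b1, Ugt2a2 and Ugt2b37. Of these 8 members 5 were detected, as were 29 of the 55 with a window. The letters TGACNNNGC, the core of the antioxidant response element bound by the Nrf2 factor, occurred in 12.4% of windows and in 3 of 55 members (5.45%), Gsta3, Gstm5 and Gstm7, all 3 detected. Forms with G in place of its C were not counted as this core. In the Gstp1 and Gstp2 windows TGAGTCA is followed by gc, so these sites differ from TGACNNNGC only in that letter. Their absence from this count therefore does not show that the Gstp windows lack such an element. A reverse match of TGAGTCA can overlap this core, and no matches of different motifs overlapped in the member windows. Genes with several windows could match more often than a single window. These matches describe letters only.

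Gst transcripts made up most of the members' summed level. The 22 Gst genes summed to 1755 TPM in replicate 1 and 1420 in replicate 2, a mean of 1587 ± 237 TPM (SD, n = 2). The 21 Sult genes summed to 281 and 207 TPM (244 ± 52.2), and the 20 Ugt genes to 245 and 119 TPM (182 ± 88.8). The families thus kept Gst first in both libraries. The levels of Sult and Ugt overlap between the libraries, yet Sult was higher within each. All members together took 0.228% of TPM in replicate 1 and 0.175% in replicate 2.

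The families also differed in how many of their genes were present. Of all members 33 (52.4%) were detected, against 56.2% of all protein-coding genes. By family this was 19 of 22 Gst genes (86.4%), 9 of 20 Ugt genes (45%) and 5 of 21 Sult genes (23.8%). The other 30 members were below 1 TPM in both libraries, so none was detected in 1 library alone. Among them 16 had 0 counts in both (25.4%, against 19.6% of protein-coding genes): 12 Sult, 3 Ugt and 1 Gst. A floor of 3 counts corresponds to between 0.0309 and 0.128 TPM for these 16 genes over both libraries, which covers counting error only.

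**Figure D1:**
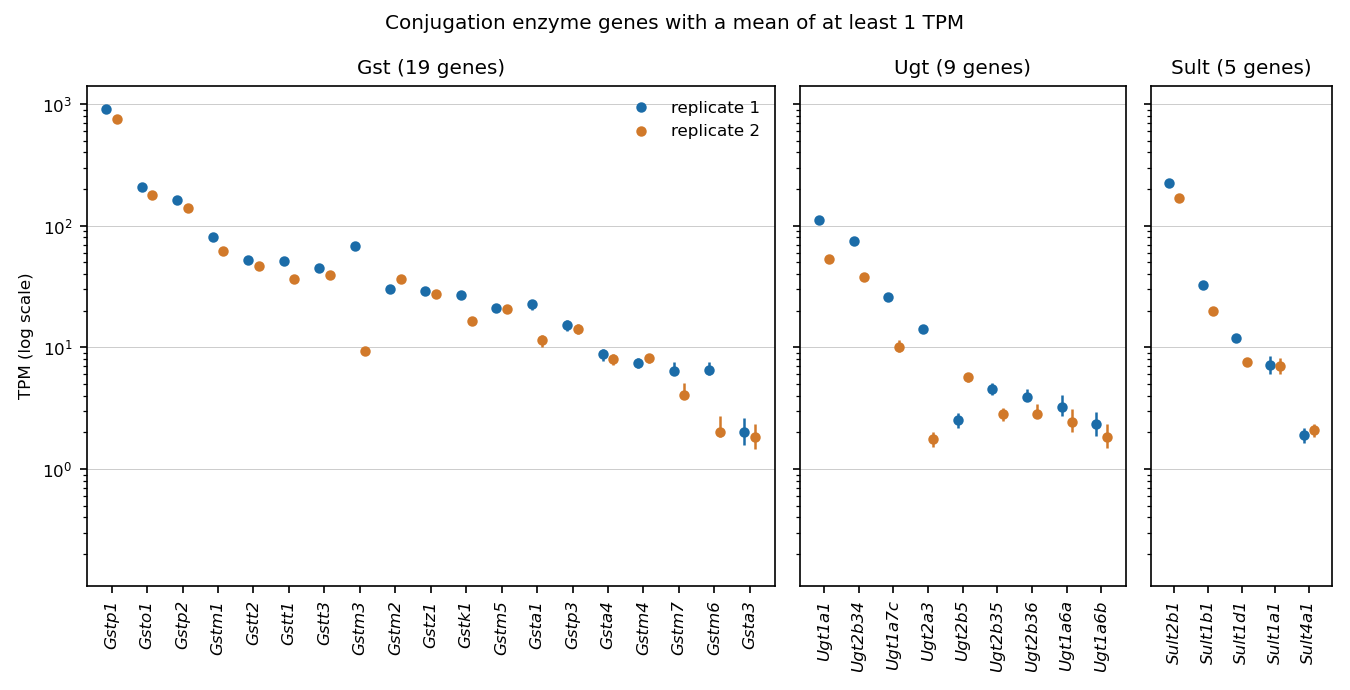
Levels of the 33 members with a mean of at least 1 TPM, by family, on a log axis in TPM. Points are the values of replicate 1 and replicate 2 and vertical lines the authors' deposited intervals on TPM, whose level is not stated. Gstp1 stands highest in both libraries, and the widest gaps between paired points are at Gstm3 and Ugt2a3.

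Gstp1 was the most abundant conjugation enzyme transcript. Gstp1, of the pi class that conjugates many small electrophiles (ENSMUSG00000060803.5, chromosome 19, 4035407 to 4037985, minus strand, mm10), reached 911 TPM in the replicate 1 library and 755 in that of replicate 2. It ranked 114th and 132nd among protein-coding genes and made up 52.6% ± 0.902 (SD, n = 2) of Gst TPM. Its neighbour Gstp2 was at 163 TPM in replicate 1 and 141 in replicate 2, and Gstp3 at 15.3 and 14.2. The order Gstp1, Gstp2, Gstp3 held in both libraries with gaps far wider than the difference between them. The 3 genes lie within 24.2 kb with no other protein-coding gene between them, and together held 63.1% ± 1.44 of Gst TPM. The Gstp1 and Gstp2 promoter windows, printed above, hold long shared runs, and so do their transcripts: 57.5% of the 76-base stretches of the main Gstp1 transcript also occur in Gstp2. The authors' counting could therefore move reads between Gstp1 and Gstp2, whereas Gstp3 shares no such stretch with another gene.

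Gsto1 stood second among the Gst genes. Gsto1 encodes an omega class enzyme that acts as a thiol transferase and reduces dehydroascorbate and methylated arsenic (ENSMUSG00000025068.7, chromosome 19, 47854970 to 47864790, plus strand). It was at 206 TPM in replicate 1 and 179 in replicate 2, which is 12.2% ± 0.603 of Gst TPM. Gsto2, the adjacent gene on the same strand, had 6 and 10 counts (0.13 and 0.16 TPM). The neighbours thus differed by more than the libraries did, and no 76-base stretch of either occurs in another gene.

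All 7 genes of the mu class, whose enzymes conjugate epoxides and quinones among others, were detected. They summed to 221 TPM in replicate 1 and 142 in replicate 2 (182 ± 56.0). Gstm1 was highest in replicate 1 at 81.5 TPM and in replicate 2 at 61.5. Gstm2 was at 30.4 and 36.1 TPM, and Gstm5 at 20.9 TPM in each library (SD 0.0707). The steady level of Gstm5 contrasts with Gstm3, the only Gst gene over 10 TPM that was at least 2-fold apart. Gstm3 (ENSMUSG00000004038.9, chromosome 3, 107963696 to 107969283, minus strand) reached 68.2 TPM (3316 counts) in replicate 1 against 9.42 TPM (597 counts) in replicate 2. It held second place in its class in replicate 1 and the fourth in replicate 2. Gstm4, Gstm6 and Gstm7 lay between 2.00 and 8.18 TPM.

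The theta class, which includes enzymes acting on halogenated compounds, had 3 genes at like levels. Gstt1 was at 51.5 and 36.7 TPM, Gstt2 at 52.2 and 46.7, and Gstt3 at 44.8 and 39.6 in replicates 1 and 2. Gstt2 was highest within each library, while Gstt1 and Gstt3 changed places. In replicate 1 the authors' intervals for Gstt2 (49.8 to 53.8 TPM) and Gstt1 (48.8 to 53.7) overlap. Gstt4, which lies between Gstt1 and Gstt2 on chromosome 10, had 0 counts in both libraries, at most 0.143 TPM by the authors' upper bound. Of the main Gstt3 transcript, 24.9% of 76-base stretches also occur in the overlapping gene Gm20441, which was at 0.43 and 0.40 TPM.

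The remaining Gst classes were lower. Gstz1, the zeta enzyme of tyrosine breakdown, was at 29.0 and 27.4 TPM in replicates 1 and 2, and Gstk1, the kappa enzyme of mitochondria and peroxisomes, at 26.9 and 16.6. The 4 members of the alpha class, which is known for its high level in liver, summed to 33.5 TPM in replicate 1 and 21.2 in replicate 2. Gsta1 carried most of that at 22.6 and 11.4 TPM. Gsta4, whose enzyme conjugates the lipid peroxidation product 4-hydroxynonenal, was at 8.77 and 7.96 TPM, Gsta3 at 2.03 and 1.83, and Gsta2 at 0.14 and 0. The 4 alpha members therefore held 1.70% ± 0.295 of Gst TPM, against 63.1% for the pi class. The name rule does not reach genes under other symbols. Of the 76-base stretches of the main Gsta1 transcript, 75.9% also occur in Gm3776, so reads could be divided between these genes.

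Ugt transcripts came mostly from Ugt1a1 and Ugt2b34. Ugt1a1, the enzyme that glucuronidates bilirubin (ENSMUSG00000089960.1, chromosome 1, 88211959 to 88218997, plus strand), reached 111 TPM (9860 counts) in replicate 1 against 53.0 TPM (6153 counts) in replicate 2. Ugt2b34 (ENSMUSG00000029260.11, chromosome 5, 86889767 to 86906937, minus strand) was at 75.0 and 37.9 TPM. Both were lower in replicate 2 by similar folds, so their shares of Ugt TPM hardly moved, at 44.9% ± 0.555 for Ugt1a1 and 31.2% ± 0.831 for Ugt2b34. The levels of Ugt1a1 and Ugt2b34 overlap between the libraries, yet Ugt1a1 was higher within each.

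The 9 Ugt1a genes each have a first exon of their own and share their last exons, so that each enzyme has its own promoter and variable part. Together they summed to 144 TPM in replicate 1 and 68.1 in replicate 2, which is 59.0% and 57.1% of Ugt TPM. Ugt1a1 was 77.3% ± 0.761 of the cluster and Ugt1a7c 16.4% ± 2.22. Ugt1a7c was at 26.0 TPM in replicate 1 and 10.1 in replicate 2, Ugt1a6a at 3.21 and 2.43, and Ugt1a6b at 2.34 and 1.85. The other 5 lay below 1 TPM, the highest of them Ugt1a9 at 0.86 and 0.14 TPM. Ugt1a5 had 39.6 expected counts in replicate 1 and 0 in replicate 2, Ugt1a2 had 18.3 and 44.6, and Ugt1a10 and Ugt1a8 had fewer than 10 in either. Because all 9 overlap on 1 strand, the sum over the cluster rests less on how reads were divided than the value of any single gene does.

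Of the 9 Ugt2 genes 5 were detected, Ugt2b34 far above the rest. Ugt2a3 (ENSMUSG00000035780.2, chromosome 5, 87324972 to 87337195, minus strand) reached 14.3 TPM (1204 counts) in replicate 1 against 1.77 TPM (195 counts) in replicate 2. Ugt2b35 was at 4.58 and 2.84 TPM and Ugt2b36 at 3.91 and 2.85. Ugt2b5 went the other way, at 2.53 TPM in replicate 1 and 5.67 in replicate 2. Ugt2b1 and Ugt2a2 had at most 4 counts, and Ugt2b37 and Ugt2b38 had none. Of the Ugt3 genes, whose enzymes use other sugars than glucuronate, Ugt3a1 had 0 counts and Ugt3a2 had 0 and 4. Ugt3a1 carries the widest upper bound of the members at 0 counts, 0.878 TPM.

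Sult transcripts were dominated by a single gene. Sult2b1, whose enzyme sulfates cholesterol and related sterols (ENSMUSG00000003271.11, chromosome 7, 45729983 to 45784669, minus strand), stood at 226 and 169 TPM in replicates 1 and 2, and held 80.8% ± 0.776 of Sult TPM. Sult1b1, a thyroid hormone and phenol sulfotransferase, was at 32.7 and 20.0 TPM, Sult1d1, which sulfates catecholamines, at 11.96 and 7.57, and Sult1a1, the main phenol sulfotransferase, at 7.18 and 7.06. Sult4a1, a gene best known from brain, was at 1.91 and 2.09 TPM. This order of 5 genes was the same in both libraries, though the authors' intervals for Sult1d1 (7.10 to 8.07 TPM) and Sult1a1 (6.04 to 8.14) overlap in replicate 2. Sult1c2 at 0.58 and 0.92 TPM and Sult5a1 at 0.95 and 0.92 lay just under 1 TPM, and Sult6b1 and Sult6b2 had at most 6 counts.

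The 12 Sult genes with 0 counts were Sult1c1, the estrogen sulfotransferase gene Sult1e1, Sult3a1, Sult3a2 and all 8 Sult2a genes, whose enzymes sulfate hydroxysteroids and bile acids in liver. The 8 Sult2a genes occupy 870 kb of chromosome 7 with 1 other protein-coding gene, Obox8, among them. Sult2b1, the highest Sult gene, lies elsewhere on the same chromosome and shares no 76-base stretch with another gene. The authors' upper bounds for the 8 Sult2a genes were all at most 0.193 TPM in replicate 1.

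Genes that lie side by side often had very different levels, as the plot of levels in genomic order shows. The 7 Gstm genes span 149 kb of chromosome 3 (107895821 to 108044894) in the order Gstm5, Gstm7, Gstm6, Gstm3, Gstm2, Gstm1, Gstm4. Gstm3 and Gstm6 are adjacent in it and both were at least 2-fold higher in replicate 1, whereas Gstm2 on the other side of Gstm3 was higher in replicate 2. On chromosome 5 (86889767 to 87591594) 12 members follow each other over 702 kb with no other protein-coding gene: 9 Ugt2 genes and then Sult1b1, Sult1d1 and Sult1e1. Ugt2b34 stands at 1 end of this row and Sult1b1 and Sult1d1 near the other, with Ugt2a3 between Ugt2b37 and Ugt2b38, both at 0 counts. In the Ugt1a row on chromosome 1 (88055388 to 88220002, 165 kb) the most abundant gene, Ugt1a1, has the last of the 9 first exons.

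**Figure D2:**
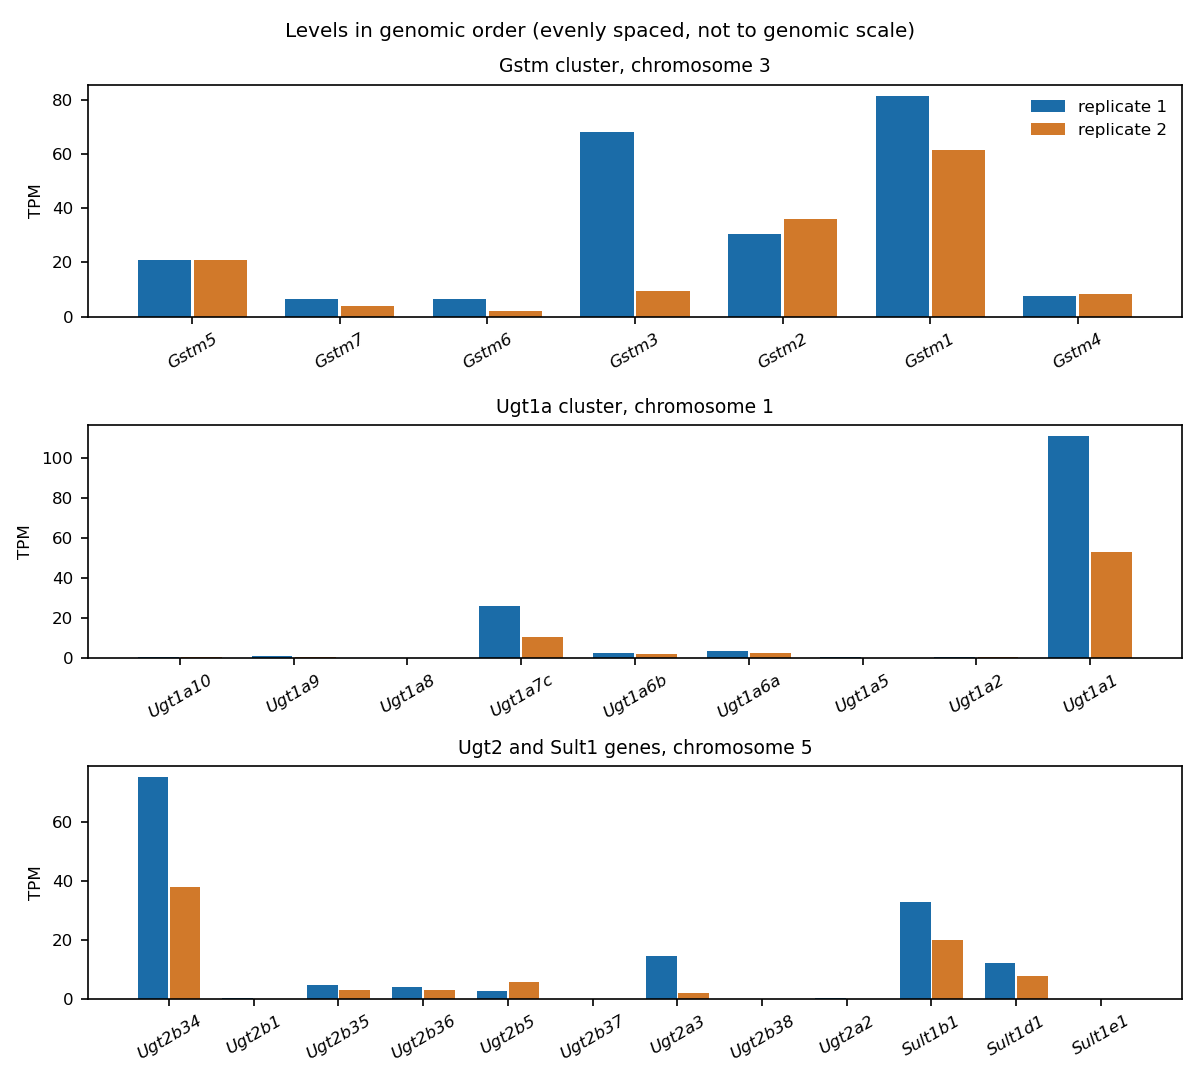
Levels in TPM (bars from 0, 1 per library, evenly spaced and not to genomic scale) of the members of 3 gene rows in their order on the chromosome. Gstm3 at 68.2 and 9.42 TPM stands out in the Gstm row, and Ugt1a1 ends the Ugt1a row. On chromosome 5 Ugt2b34, Sult1b1 and Sult1d1 stand well above 0 in both libraries, and Ugt2a3 (14.3 and 1.77 TPM) mainly in replicate 1.

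Between the libraries, most members were higher in replicate 1. Differences are given as log2 of (TPM + 1) in replicate 2 over (TPM + 1) in replicate 1, which understates those of low genes, for the 33 members with a mean of at least 1 TPM. Of these, 29 (87.9%) were higher in replicate 1, against 66.5% of all 13512 genes with such a mean. The median over members was -0.30 and over all genes -0.14. At least 2-fold apart were 5 members (15.2%), all higher in replicate 1, against 5.64% of all genes, of which 4.46% were higher in replicate 1 and 1.18% in replicate 2. The authors' intervals did not overlap for 23 members (69.7%), against 56.9% of all genes, and 21 of these 23 (91.3%) were higher in replicate 1, against 74.1% of the 7692 genes with intervals apart. These intervals cover the estimate within 1 library and not the spread between mice.

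The 5 members were Gstm3 (log2 difference -2.73), Ugt2a3 (-2.46), Gstm6 (-1.32), Ugt1a7c (-1.28) and Ugt1a1 (-1.05). Ugt2b34 at -0.97 and Gsta1 at -0.93 lay just under 2-fold, and Ugt2b5 at 0.92 was the highest in the other direction. By family the medians were -0.20 for 19 Gst genes, -0.54 for 9 Ugt genes and -0.42 for 5 Sult genes. Gst levels thus stayed nearest to the median of all genes. The Ugt sum was 2.05 times as high in replicate 1, the Sult sum 1.36 times and the Gst sum 1.24 times.

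The scaling moves the middle of these values. After TMM scaling of the expected counts, the median of all genes was 0.01 and that of the members -0.22, and 22 of 33 members were higher in replicate 1, against 48.5% of all genes. The count of members at least 2-fold apart was again 5, against 3.8% of genes, but Ugt1a1 dropped out at a log2 difference of -0.88, and Ugt2b5 entered, higher in replicate 2. The Gst median was -0.03 under TMM, with 11 genes higher in replicate 1 and 8 in replicate 2, and the Ugt median -0.44. The sign flipped with the scaling for Gsta3, Gsta4, Gstm5, Gstp3, Gstt2, Gstt3, Gstz1 and Sult1a1, so no direction is given for these 8. Gstm3 (-2.84 to -2.56), Ugt2a3 (-2.94 to -2.30), Gstm6 (-1.65 to -1.16) and Ugt1a7c (-1.35 to -1.12) stayed at least 2-fold apart under each setting that included them.

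**Figure D3:**
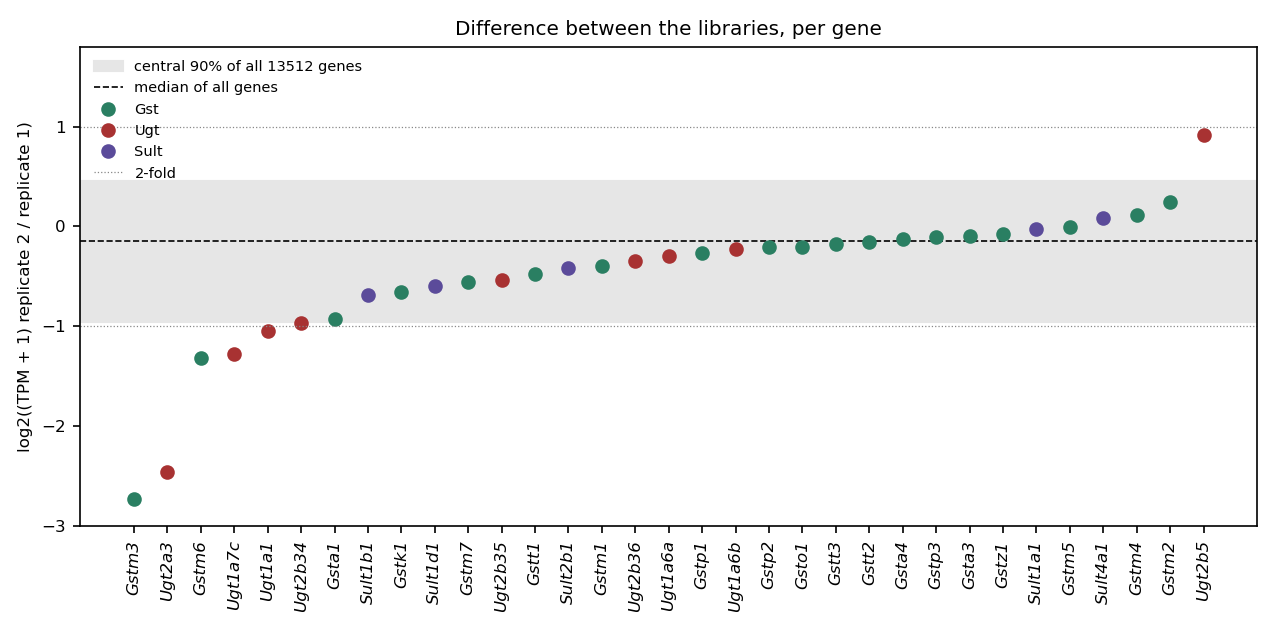
Log2((TPM + 1) of replicate 2 / (TPM + 1) of replicate 1) for the 33 members, ordered by value and coloured by family. The grey band holds the central 90% of 13512 genes (-0.96 to 0.46), the dashed line is their median and dotted lines mark 2-fold; Gstm3 and Ugt2a3 lie furthest below the band and Ugt2b5 above it.

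Markers of several cell types also differed between the libraries. The small intestine enterocyte list had a median difference of -1.81 over its 10 genes, and the ileal list a median of 1.84 over 5. On TPM, Ugt2a3 and Gstm3 moved in the direction of the first list. So did 29 of the 33 members in all and 66.5% of all genes with a mean of at least 1 TPM. Ugt2b5 moved in the direction of the second list, with 4 members in all higher in replicate 2. The part of any cell type list in the members' values was not tested. The 5 plasma cell markers summed to 19669 and 9977 TPM (median -0.92, 4 of 5 higher in replicate 1). All 7 goblet cell markers (32329 and 42164 TPM, median 0.34), 6 of 7 Paneth cell markers (20077 and 26021 TPM, median 0.57) and 6 of 7 smooth muscle markers (3133 and 3707 TPM, median 0.23) were higher in replicate 2. With TPM rescaled so that the general epithelial markers had equal sums, a setting chosen after seeing the data, Ugt2b5 entered and Ugt1a1 left the 5 members and the Ugt median was -0.44. Liver is a known site of high Ugt, Gst and Sult expression. Of 10 hepatocyte markers 3 were detected, with sums of 800 TPM in replicate 1 and 174 in replicate 2, mostly the apolipoprotein gene Apoc3 at 783 and 128 TPM. Over the 4 with a mean of at least 1 TPM the median difference was 0.88, and Serpina1b (8.44 and 25.4 TPM) and Tat (0.59 and 14.8 TPM) were at least 2-fold higher in replicate 2. The defining hepatocyte gene Alb was at 0.72 and 0.44 TPM. Of 6 kidney tubule markers none was detected, with sums of 0.51 and 0.71 TPM and 3 genes at 0 counts.

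Most members were read from a single main transcript. Of the 33 members 12 have 1 annotated transcript in the tables, and of the other 21 the same transcript was highest in both libraries for 19. In 10 of those 21, 1 transcript held at least 90% of the gene's TPM in both. Gstm4 was split between Gstm4-203 (51.3% in replicate 1 and 45.9% in replicate 2) and Gstm4-201 (48.7% and 47.4%). Gsta1 changed order: its coding transcript Gsta1-201 held 64.6% in replicate 1 and 40.5% in replicate 2, and Gsta1-202, annotated as a retained intron, held 35.4% and 59.5%. At the coding transcript alone Gsta1 was thus at 14.6 TPM in replicate 1 and 4.63 in replicate 2. Sult2b1-201 held 86.9% and 83.1% of its gene, and 4 transcripts of Sult2b1 that are not in the later annotation held the rest. Ugt1a7c-201 held 72.7% and 72.5%, and Sult1b1-203 held 84.9% in each library.

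How far a level can be trusted to 1 gene differs between the members. Of the 33, 17 share no 76-base stretch of their main transcript with another gene, among them Sult2b1, Gsto1, Gstt1, Gstt2 and Sult1b1, and 22 share under 10%. At least 50% was shared by 6: Ugt1a6a (100%, all with Ugt1a7c), Gsta1 (86.1%, mostly with Gm3776), Ugt1a6b (75.2%), Gstp2 (68.0%), Ugt1a1 (57.7%) and Gstp1 (57.5%). Of the members furthest apart between the libraries, Ugt1a1 shared 57.7%, Ugt1a7c 40.0%, Gstm3 21.3%, Gstm6 5.29% and Ugt2a3 1.76%. Ugt2b5 shared 30.1%, chiefly with Ugt2b38, which had 0 counts. Values of the 6 genes are uncertain to the extent that reads were divided between copies.

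**Figure D4:**
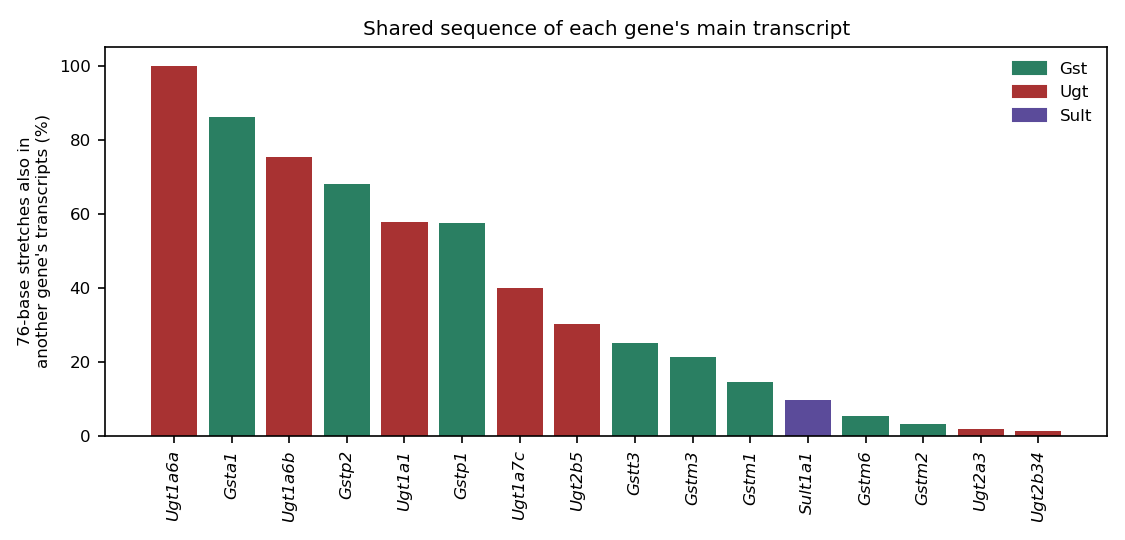
Percent of the 76-base stretches of each member's main transcript that also occur in a transcript of another gene, for the 16 of 33 members with any (bars from 0, coloured by family). Ugt1a6a, Gsta1, Ugt1a6b, Gstp2, Ugt1a1 and Gstp1 exceed 50%; Sult1a1 is the only Sult gene shown.

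Genes that supply the cosubstrates were present beside the enzymes. Of 10 glutathione supply genes 8 were detected, none at least 2-fold apart, with a median difference of -0.52. The highest were Ggt1, which breaks down extracellular glutathione, at 478 and 301 TPM in replicates 1 and 2, Slc3a2 at 143 and 88.8, and the glutathione reductase gene Gsr at 94.4 and 89.4. All 5 UDP-glucuronate genes were detected (median -0.53), led by Ugdh, the UDP-glucose dehydrogenase, at 69.5 and 47.3 TPM. Of 8 PAPS genes 7 were detected (median -0.35), and 1 was at least 2-fold apart: Bpnt1, which removes the spent donor PAP, at 296 and 112 TPM. The PAPS synthase gene Papss1 was at 55.2 and 43.0 TPM.

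Transporters and hydrolases complete the path of a conjugate. Of 9 efflux transporter genes 8 were detected, with a median difference of -0.37. Abcg2 was at 47.8 TPM in replicate 1 and 67.3 in replicate 2, and Abcc3, at the basolateral side, at 50.9 and 39.1. Abcc2, the apical exporter of glucuronides and glutathione conjugates, was the 1 gene at least 2-fold apart, at 38.9 and 5.06 TPM (log2 difference -2.72). On TPM, its direction was that of 29 of the 33 members and of 66.5% of all genes with a mean of at least 1 TPM. After TMM scaling, 22 of the 33 members and 48.5% of these genes had that direction. Of 8 conjugate hydrolysis genes 7 were matched and all 7 detected (median -0.31, none 2-fold apart), among them the peptidase genes Anpep at 2790 and 1852 TPM and Dpep1 at 346 and 299, and the beta-glucuronidase gene Gusb at 24.9 and 21.4. Of 17 other conjugation genes 12 were detected. The microsomal glutathione transferase genes Mgst3 (601 and 445 TPM) and Mgst1 (488 and 518 TPM) stood above every member except Gstp1. Tst, a sulfur transferase, was at least 2-fold higher in replicate 2, at 14.2 and 32.3 TPM.

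Of 17 regulators of these genes 16 were detected, with a median difference of -0.42. The highest were Hnf4a at 351 and 271 TPM, Cdx2 at 143 and 122 and the vitamin D receptor gene Vdr at 125 and 76.4. At least 2-fold higher in replicate 1 were Gata4, a zinc finger factor of the upper intestine, at 52.9 and 7.45 TPM, and Nr1i3, the receptor CAR that induces Ugt1a1 and other members, at 17.2 and 3.08. Chosen after their values were seen, Nfe2l2, which encodes Nrf2, was at 83.8 and 46.0 TPM and Nr1i2, the receptor PXR, at 46.8 and 36.8. Of 15 Nrf2 target genes outside the families 14 were detected, with sums of 4819 and 4830 TPM, a median difference of -0.08 and none at least 2-fold apart. The sums rest largely on the ferritin genes Fth1 at 1674.2 and 1463.8 TPM and Ftl1 at 1390.5 and 1682.6. Of the 14 genes, 8 were higher in replicate 1 and 6 in replicate 2. The 6 targets of the aryl hydrocarbon receptor were low, 3 of them detected, led by the quinone reductase gene Nqo1 at 22.6 and 13.9 TPM, and Cyp1a1, a member of that list chosen after its values were seen, was at 0.28 and 0.03 TPM.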

How the data were processed

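Gene and transcript tables of 2 libraries were analysed, on mm10 with GENCODE M4 per the accompanying notes. As for the aligner and the quantification program, neither is given in the sources used here. The expected counts were estimated by the authors per gene and need not be whole. The TPM deposited by the authors sum to the same total over all features, spike-ins included, with effective length corrected. The deposited FPKM were an alternative. The deposited bounds on TPM are a signal column whose interval level is not stated. The percent of a gene's TPM held by each transcript was used as deposited.

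Symbols, biotypes and positions came from GENCODE M21 (same build), matched on the identifier without version. Detection was 1 TPM in both libraries. Ratios used a pseudocount of 1 over genes with a mean of at least 1 TPM, with no test, since 1 library stands against 1. A gene was called apart at 2-fold. Shared sequence was searched as 76-base stretches of the main transcript against the forward strand of all M21 transcripts. Expected counts, rounded, were scaled with TMM (edgeR 4.0.16) and DESeq2 1.42.0 size factors in R 4.3.3. All further computing was in Python 3.11.15 (pandas 2.3.3, numpy 2.4.6, matplotlib 3.10.9). The ratio step was tested on simulated data. The members and the 23 gene lists (193 of 194 entries matched) were chosen with earlier results of these data known. By rule, members at 10 TPM or more or at least 2-fold apart got values in both libraries. Of each list, the 3 highest genes and those at least 2-fold apart could be named. Not all of these were named, and several lists are given by counts, sums or medians only. Car1, Aqp8, Atp12a, Scnn1b, Scnn1g, Alb, Xist, Nfe2l2, Nr1i2 and Cyp1a1 were named after their values were seen. Junction and contig lists of the series are on mm9 and were not used here. Some further results that were computed are not reported here.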

Additional observations from a re-analysis of the deposited data

How the results depend on the processing

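Without replicate 1 and without replicate 2 in turn, the sums ranged from 1420 to 1755 TPM for Gst, from 119 to 245 for Ugt and from 207 to 281 for Sult, the detected members were 33 each time, and the Ugt1a share of Ugt TPM ranged from 57.1% to 59.0%. With 2 libraries these ranges are the library values themselves and say nothing of stability, and the Ugt mean of 182 TPM moved by over 1.5 times, to 119, without replicate 1. The median log2 difference of the members, -0.30, moved with the filter and the unit: it was -0.10 with no filter on low values, where members at 0 enter, -0.40 with a minimum mean of 5 TPM, and -0.17 with FPKM, where the median of all genes also moved to 0.00. Computed from expected counts, which are not per length, the Ugt1a share was 52.8%. Under the alternatives that keep both libraries (posterior means, other minimums and pseudocounts, other scalings), the other values moved by less than 1 SD (sums and shares), 1.5 times (counts) or 0.1 (the median), and the median kept its sign. The count of detected members was 35 at a minimum of 0.5 TPM and 23 at 5 TPM. The equal epithelial scaling was chosen after seeing the data. No paired analysis was possible because there is only 1 group. Depth limits the members at 0 counts, for which a floor of 3 counts comes to at most 0.128 TPM. Neither library can be checked by another of its kind, and both depart from their labels.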
